A study of Mus musculus with 4 samples.

Results

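Metallothioneins and the membrane carriers of zinc and manganese were followed in mouse liver through 10 genes: Mt1, Mt2, the exporters Slc30a1, Slc30a5 and Slc30a10, the importers Slc39a1, Slc39a4, Slc39a8 and Slc39a14, and the regulator Mtf1. They were taken by gene symbol from the annotation of the array, which names 21260 symbols, and are measured by 21 of its 41174 probes. All 21 probes were well above background in every animal and none was saturated. The livers came from 4 Wrn mutant males that had received 0.4% vitamin C in their water from weaning and from 4 untreated wild-type males, all C57Bl/6 and 3 months old, kept with free access to food under a reversed light cycle. The labels do not say which Wrn allele, a gene for a RecQ-type DNA helicase, the mutants carried. Each of 4 two-colour arrays carried 1 mutant labelled with Cy5 and 1 wild-type animal labelled with Cy3. No dyes were swapped, and mutants without vitamin C or wild types with it are not analysed here. Genotype, vitamin C and dye therefore cannot be told apart in any ratio.

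Metallothioneins are small proteins in which cysteines hold zinc and copper, and in liver they buffer both metals. Their genes are switched on by zinc through the zinc-sensing transcription factor MTF1, which binds metal response elements, and also by glucocorticoids and by interleukin-6 during the acute phase response. Carriers of the Slc30 (ZnT) family move zinc out of the cytosol, into the blood or into vesicles, and those of the Slc39 (ZIP) family bring it in. Slc30a10 exports manganese, while Slc39a8 and Slc39a14 import manganese as well as zinc.

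The sequence of the brighter Mt1 probe is given because the metallothionein result rests on it. In the reading frame with the most cysteine codons its 60 bases hold 19 codons, of which 6 are cysteine codons (in capitals) and 0 are stop codons. The longest run of bases it shares with the Mt2 probe is 5, and 6 with the other Mt1 probe.
Mt1 probe: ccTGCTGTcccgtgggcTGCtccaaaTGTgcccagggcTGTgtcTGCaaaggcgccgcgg

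The promoters of Mt1, Mt2 and the zinc exporter Slc30a1, the best known targets of MTF1, are printed from RefSeq (assembly GRCm38.p6), from 250 bases before to 50 bases after the start of the gene, 5′ to 3′. All 3 lie on the plus strand. Capitals mark matches on either strand to the core of the metal response element, searched as TGCACNC and as TGCGCNC.
Mt1, chr8:94178839-94179138: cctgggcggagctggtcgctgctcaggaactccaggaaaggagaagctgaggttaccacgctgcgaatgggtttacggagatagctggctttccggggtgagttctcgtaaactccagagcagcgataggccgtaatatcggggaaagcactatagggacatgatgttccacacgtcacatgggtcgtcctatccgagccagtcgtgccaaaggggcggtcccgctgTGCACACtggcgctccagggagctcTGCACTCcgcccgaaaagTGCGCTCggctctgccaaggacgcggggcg
Mt2, chr8:94172368-94172667: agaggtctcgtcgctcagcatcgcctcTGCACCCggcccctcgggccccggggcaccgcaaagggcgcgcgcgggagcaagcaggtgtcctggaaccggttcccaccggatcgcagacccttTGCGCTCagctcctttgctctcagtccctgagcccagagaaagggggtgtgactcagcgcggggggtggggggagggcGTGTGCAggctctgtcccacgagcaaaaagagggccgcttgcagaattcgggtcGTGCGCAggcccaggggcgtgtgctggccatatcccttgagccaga
Slc30a1, chr1:191906531-191906830: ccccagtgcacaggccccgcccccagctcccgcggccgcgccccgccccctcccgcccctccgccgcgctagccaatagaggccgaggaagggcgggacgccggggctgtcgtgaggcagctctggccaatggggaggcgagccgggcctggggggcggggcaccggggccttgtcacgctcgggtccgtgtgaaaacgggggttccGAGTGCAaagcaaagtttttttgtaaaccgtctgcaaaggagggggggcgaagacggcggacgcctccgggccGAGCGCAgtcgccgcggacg

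Mt1 and Mt2 are neighbours on chromosome 8, with 0 other genes of the RefSeq table starting between them. The Mt1 window held 3 matches and the Mt2 window 4. At least 3 matches were found in 1.97% of 32851 promoter windows of the same length, and at least 4 in 0.517%. The Slc30a1 window held 2 matches, and 7.11% of windows held at least 2. A promoter window was matched for 8 of the 10 genes. Slc30a10 had 3 matches in its window, of which 2 overlap on opposite strands, Slc30a5 had 1, Slc39a8 had 1 in 1 of its 2 windows, and Slc39a1 and Mtf1 had 0. The forms TGCACNC and TGCGCNC occurred in 12.6% and 15.4% of all windows. A match is a description of these letters and not evidence of binding.

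Of the 21 probes, 2 were higher and 2 were lower in the mutants at an adjusted p under 0.05 in limma, with Benjamini-Hochberg adjustment over all 39080 kept probes. Across all kept probes 6.19% were higher and 6.79% were lower, and the 2 of 21 member probes in each direction lie near these shares. Their median log2 ratio of mutant over wild type was -0.09, against 0.00 for all kept probes. The probes past the threshold belonged to the manganese exporter Slc30a10 and to Mtf1 (higher) and to the zinc exporters Slc30a1 and Slc30a5 (lower). The differences of largest size, those of Mt1 and Mt2, did not pass, and they came mostly from a single wild-type animal. In whole liver, fewer cells of a type and less RNA per cell cannot be told apart. The p-values measure the spread between pairs of animals, and the number of arrays limits their precision. Before adjustment, a limma p under 0.05 was found for 12775 of the 39080 kept probes and for 7 of the 21 member probes.

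**Figure D1:**
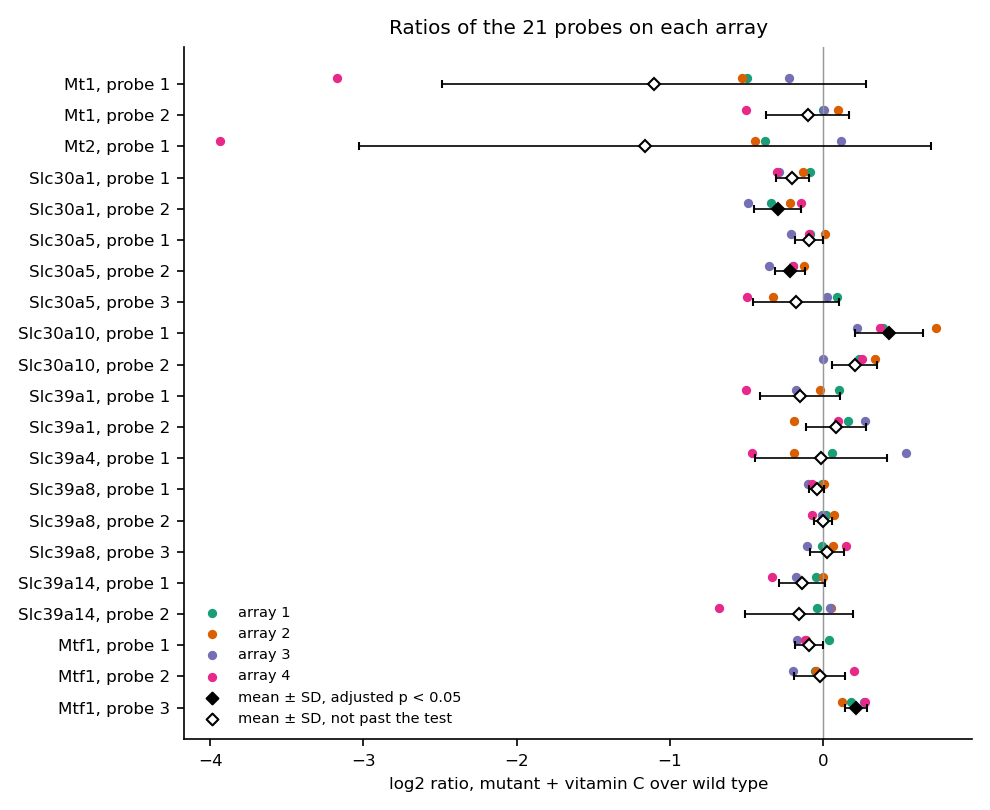
Log2 ratio of mutant over wild type for the 21 probes, on the 4 arrays (coloured points), with the mean and SD over arrays (diamonds and bars; n = 4). Filled diamonds passed an adjusted p of 0.05 in limma. Mt1 probe 1 and Mt2 stand apart on array 4, at -3.17 and -3.93, while the ratios of every other probe lay between -0.68 and 0.74.

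Mt1 was measured by 10 spots of its brighter probe (A_51_P294979, called probe 1) and by 1 spot of a dimmer one (A_52_P423810, probe 2). On probe 1 the log2 intensity after normalisation was 11.52, 11.34, 11.89 and 12.10 in the mutants of arrays 1, 2, 3 and 4, and 12.01, 11.87, 12.11 and 15.27 in the wild-type animals. The mutant was the lower of the pair on all 4 arrays, but the groups overlapped, because the highest mutant lay above the wild types of arrays 1 and 2. The ratios were -0.50, -0.53, -0.22 and -3.17, with a mean of -1.10 ± 1.38 (SD, n = 4). This mean did not pass the test (limma, SE 0.457, adjusted p = 0.147). Ratios below 0 on all 4 arrays were found for 18.8% of kept probes.

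The wild-type animal of array 4 had 9.66 times the Mt1 intensity of the mean of the other 3 wild types on the log2 scale. The mutant hybridised with it was also the highest of its group, by 0.52 on the log2 scale over the mean of the other 3. The 10 spots of the probe are repeats within an array and not separate animals. Their ratios had an SD of 0.136, 0.0771, 0.0513 and 0.0503 on arrays 1 to 4, after 1 spot on array 1 was removed for its quality mark, so the value of array 4 was read alike by all its spots, from -3.23 to -3.07. Without array 4 the mean ratio was -0.42 ± 0.17 (SD, n = 3), and this smaller difference did pass the test (limma, adjusted p = 0.0463). Leaving out array 1, 2 or 3 in its place gave means from -1.40 to -1.30 that did not pass.

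Probe 2 of Mt1, for which the array annotation names another target sequence than for probe 1, gave another picture. Its ratios were 0.00, 0.10, 0.01 and -0.50, with a mean of -0.10 ± 0.27 (SD, n = 4; limma, adjusted p = 0.524). The wild-type animal of array 4 was again the highest of all 8, at 10.27 against 9.71 to 9.91 in the other wild types. The probes therefore shared the direction of array 4 but differed in its size, 0.49 against 3.27 log2 units above the mean of the other wild types, and on arrays 1 to 3 only probe 1 was below 0.

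Mt2, the partner gene of Mt1, had 1 probe (A_51_P246317). Its log2 intensity was 11.83, 11.70, 12.26 and 12.54 in the mutants and 12.21, 12.14, 12.15 and 16.47 in the wild types of arrays 1 to 4. The wild type of array 4 lay 4.31 log2 units, or 19.8-fold, above the mean of the other 3. The mutant was lower on arrays 1, 2 and 4 and higher on array 3, and the groups overlapped. The ratios of -0.38, -0.44, 0.12 and -3.93 had a mean of -1.16 ± 1.87 (SD, n = 4), which did not pass (limma, SE 0.615, adjusted p = 0.238). Without array 4 the mean was -0.23 ± 0.30 (SD, n = 3), and it did not pass either (limma, adjusted p = 0.239).

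**Figure D2:**
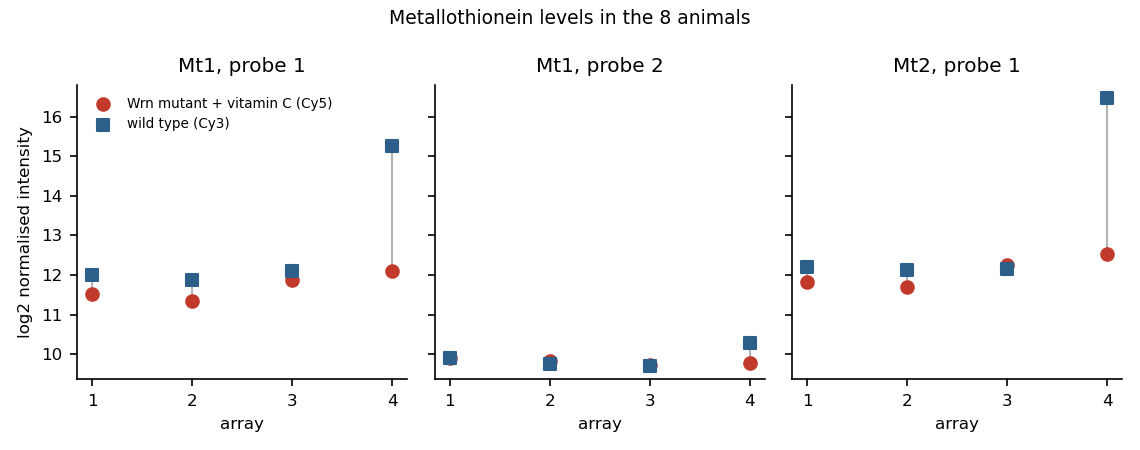
Log2 normalised intensity of the 2 Mt1 probes and the Mt2 probe in the mutant (circles, Cy5) and wild-type animal (squares, Cy3) of each array, joined by a grey line. The wild type of array 4 stands at 15.27 for Mt1 probe 1 and at 16.47 for Mt2, above the other 7 animals on both probes.

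The gap between array 4 and the other 3 ratios was above Dixon's critical value for 4 values on 4 of the 21 member probes: both Mt1 probes, Mt2 and the dimmer Slc39a14 probe. A gap of that size, on any array, was found for 4.56% of kept probes. Few probes on the array were as high in that animal. Its level was at least 2 log2 units above the mean of the other wild types for 14 kept probes (0.0358%), among which Mt2 ranked 4th and Mt1 probe 1 ranked 7th. Of the ratios on array 4, Mt2 was the 5th lowest and Mt1 the 7th lowest of 39079, and 7 probes (0.0179%) were at -3 or lower. The others of those 7 were Saa3 at -4.34, the Saa1 probes at -4.19 and -4.12, Saa2 at -4.004 and Lcn2 at -3.20, all genes of acute phase proteins. Saa3 is named here because of its place in this order.

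The genes whose levels lay nearest to those of Mt1 over the 8 animals, each gene centred on its own mean, were the acute phase gene Orm2 (root mean square distance 0.306 log2 units), Isyna1, which makes inositol phosphate (0.378), Orm1 (0.509), Lbp, the lipopolysaccharide binding protein (0.535), and Lrg1 (0.561), among 20633 symbols. Mt2 lay at 0.325. For Mt2 the nearest were Orm2 (0.541), Orm3 (0.559), Isyna1 (0.687), Orm1 (0.773) and Fgl1 (0.794). These distances describe 8 values that share arrays, and they are governed by 1 animal. Of these neighbours of Mt1 or Mt2, only Fgl1 passed the test, with a mean ratio of -1.78 (limma, adjusted p = 0.0145).

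**Figure D3:**
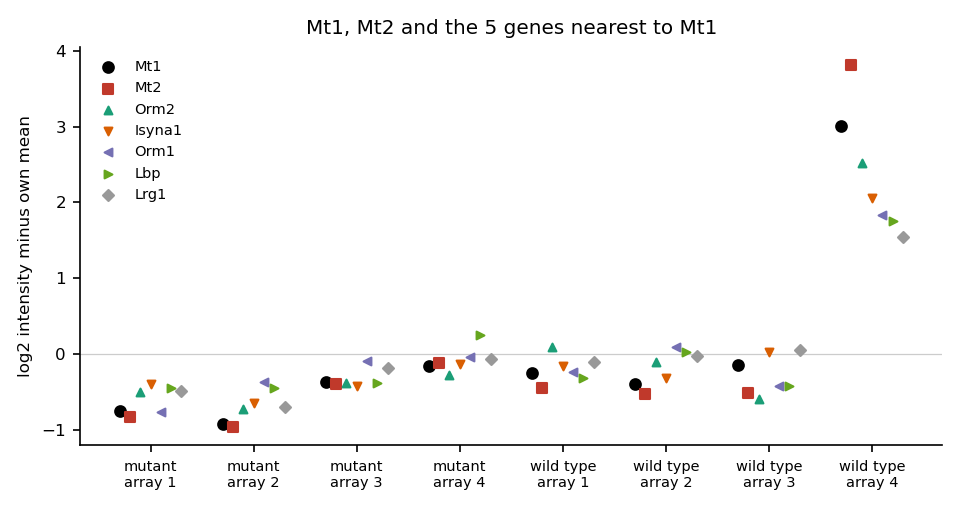
Log2 intensity minus the gene's own mean over 8 animals for Mt1 probe 1, Mt2 and the 5 genes nearest to Mt1, with the 4 mutants on the left and the 4 wild types on the right. The wild type of array 4 is the highest animal for all 7 genes.

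Responses known to switch on metallothioneins were read from lists of their genes. Of 19 probes of 14 genes that respond to interleukin-6 and STAT3, 7 were lower and 0 higher, with a median ratio of -0.60. Of all kept probes 6.79% were lower and 6.19% higher. Saa1 was lower on both probes (-2.72 ± 1.16, adjusted p = 0.0144, on the larger), as were Saa2 (-2.40 ± 1.32, adjusted p = 0.0227), Hpx, the heme binding hemopexin (-0.91 ± 0.68, adjusted p = 0.0456), and both probes of Steap4, a metalloreductase (-0.67 ± 0.32, adjusted p = 0.0195, on the larger; SD, n = 4 throughout, limma). The remaining lower probe was 1 of 2 of Socs3, the feedback inhibitor of STAT3 signalling (-0.61 ± 0.38, limma, adjusted p = 0.0317), whose other probe had a mean of 0.11 ± 0.05 (adjusted p = 0.1498); Socs3 is named to complete the count. Genes of the list without a call included Lcn2 (-1.125), Orm2 (-0.95), Orm1 (-0.63), Hp (-0.19), Fgb (0.20) and Fgg (0.24). With median centring in place of loess the ratio of Hpx was -0.27. Those of Lcn2, Orm2 and Orm1 were then -1.04, -0.61 and -0.31, and those of Hp, Fgb and Fgg 0.49, 0.89 and 0.91. The wild type of array 4 was the highest of all animals on 14 of these 19 probes, against 12.3% of kept probes and 7 of the 21 probes of the members. The summed intensity of this list was 21.9 on the log2 scale in that animal and 19.9 to 20.3 in the other wild types, and 19.9 to 20.2 in the mutants. Without array 4 the list kept 6 lower probes with a median of -0.22, and without array 2 it had 0. Unlike Mt1 and Mt2, Saa1 was far below the wild type on arrays 2 and 3 too, at -2.86 and -2.63 on its larger probe.

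Glucocorticoid responsive genes gave 2 higher and 2 lower of 17 probes, with a median of 0.03. Of all kept probes 6.19% were higher and 6.79% lower. The wild type of array 4 was the highest wild type on 9 of these 17 probes, against 21.4% of kept probes. It was the highest of all animals on 4 of 17, against 12.3% of kept probes. The summed log2 intensity of this list was 17.43 in that animal, 16.86 to 17.21 in the other wild types and 17.34 to 17.54 in mutants. No probe of Tsc22d3 (mean ratios 0.20 to 0.35), Fkbp5 (-0.34 to 0.18), Per1 (-0.07) or Sgk1 (-0.01 to 0.07) was called over the 4 arrays. Without array 4 the list had 3 higher probes and 1 lower. The higher ones then included 1 probe of Tsc22d3 (0.52, limma, adjusted p = 0.0386) and 1 of Fkbp5 (0.42, limma, adjusted p = 0.0427). Without array 1, 2 or 3 the list had 0 higher probes and 1 to 2 lower. Dusp1, a MAP kinase phosphatase, was lower (-1.32 ± 0.28, limma, adjusted p = 0.00496) and stayed past the threshold with any array left out. Tat, the hepatic tyrosine aminotransferase, was higher (0.54 ± 0.26, adjusted p = 0.0219), 1 of 2 Klf9 probes was lower (-0.27 ± 0.13, adjusted p = 0.0340) and 1 of 4 probes of the receptor gene Nr3c1 was higher (0.22 ± 0.11, adjusted p = 0.0416; SD, n = 4, limma). Tat passed only without array 4 when an array was left out, and these Klf9 and Nr3c1 probes passed in none of those fits. With median centring in place of loess the ratio of Tat was 1.09 and that of this Nr3c1 probe 0.34, and with Agilent's processed signals the values for Klf9 and Nr3c1 were -0.15 and 0.13.

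The tissue was checked against cell type markers. Hepatocyte markers were kept on 13 probes for 7 of 8 listed genes. Of these probes 3 were higher (Alb, Ttr and Apoa2) and 2 lower (1 of 5 probes of Apob and 1 of 3 of Hnf4a). The Apob probes without a call had means from -0.35 to -0.03, and those of Hnf4a -0.15 and -0.01. Apoa1 (-0.11) and Cps1 (0.10) had no call, and the median ratio of the 13 probes was -0.11. The summed log2 intensity of hepatocyte markers was 19.3 to 19.7 in wild types and 19.9 to 20.1 in mutants. Intensities were added before the log was taken, so the brightest markers weigh most in this sum. Of 7 Kupffer cell probes 0 were higher or lower by limma (0 at an unadjusted p under 0.05). The wild type of array 4 was the highest wild type on 6 of 7, against 21.4% of kept probes. It was the highest of all 8 animals on 4 of 7, against 12.3% of kept probes. Its sum was 15.5 against 14.9 to 15.0 in the other wild types and 14.8 to 15.2 in mutants. Neutrophil markers gave 0 calls of 4 (1 at an unadjusted p under 0.05), with a sum of 11.54 in that animal, 10.76 to 10.80 in the other wild types and 10.46 to 10.81 in mutants. In that animal the neutrophil genes S100a8 and S100a9 lay 0.98 and 1.01 log2 units above the mean of the other wild types, while the differences of Ngp and Elane were -0.07 and -0.32. The part of these cells in the Mt1 and Mt2 values was not tested. Erythroid markers had 0 calls of 8 (0 at an unadjusted p under 0.05), with array medians from -1.04 to 1.63. Markers of sinusoidal endothelium (2 of 9 probes lower), stellate cells (2 of 10), cholangiocytes (1 of 5), B cells (1 of 4), T cells (0 of 6, and 0 at an unadjusted p under 0.05) and pancreatic acini (1 of 5) had no probe that was higher. Of all kept probes 6.79% were lower and 6.19% higher. Both lower stellate probes were of Col1a1, whose remaining probe was at 0.06. The lower acinar probe was Cela2a, and the probes of Cpa1, Pnlip and Prss2 had means from 0.06 to 0.19.

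Slc30a1 (ZnT1) exports zinc across the plasma membrane and is itself an MTF1 target. Its dimmer probe (A_51_P250378, probe 2) read 11.11, 11.50, 11.44 and 11.77 in the mutants and 11.44, 11.71, 11.93 and 11.91 in the wild types. The mutant was lower on each array by 0.14 to 0.49, although the ranges of the groups overlapped. The mean ratio of -0.29 ± 0.15 (SD, n = 4) passed the test (limma, SE 0.0644, adjusted p = 0.0332). The brighter probe had ratios of -0.09, -0.13, -0.29 and -0.30, also below 0 on all arrays, and a mean of -0.20 ± 0.11 that fell just short (limma, adjusted p = 0.0537). The mean of both probes was -0.25 (adjusted p = 0.0328). With any array left out probe 2 kept its direction but not its call, with an adjusted p from 0.0543 to 0.0976, and with Agilent's processed signals its ratio was -0.16 (adjusted p = 0.379).

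Slc30a5 (ZnT5) loads zinc into the secretory pathway. Of its 3 probes, the middle one in brightness (A_52_P105501, probe 2) had ratios of -0.19, -0.12, -0.35 and -0.19 and a mean of -0.21 ± 0.10 (SD, n = 4; limma, adjusted p = 0.0411). Its levels ran from 10.69 to 11.05 in mutants and from 10.81 to 11.24 in wild types, so the groups overlapped. The brightest probe had a mean of -0.09 ± 0.09 (adjusted p = 0.254) and the dimmest one of -0.18 ± 0.28 (adjusted p = 0.272), and both had ratios of either sign. The call of probe 2 was lost with any array left out (adjusted p from 0.0916 to 0.109) and with the authors' ratios (adjusted p = 0.0505), and the ratio was -0.14 with processed signals (adjusted p = 0.261).

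Slc30a10 was the member with the largest increase. Its brighter probe (A_51_P173445, probe 1) read 10.38, 10.96, 10.496 and 10.84 in the mutants and 9.99, 10.22, 10.28 and 10.47 in the wild types. The mutant was higher in every pair, most on array 2, and only the mutant of array 1 lay within the wild-type range. The ratios of 0.39, 0.74, 0.22 and 0.37 had a mean of 0.43 ± 0.22 (SD, n = 4), which passed the test (limma, SE 0.0829, adjusted p = 0.0261). Ratios above 0 on all 4 arrays were found for 21.4% of kept probes. Probe 2 gave 0.23, 0.34, 0.00 and 0.26, a mean of 0.21 ± 0.15 (SD, n = 4; limma, adjusted p = 0.0702), again with its lowest ratio on array 3. The mean of both probes was 0.32 (adjusted p = 0.0397). Without array 3 both probes passed, at 0.50 (adjusted p = 0.0343) and 0.28 (adjusted p = 0.0434), while without array 1, 2 or 4 probe 1 had an adjusted p of 0.0684, 0.0660 or 0.0632.

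**Figure D4:**
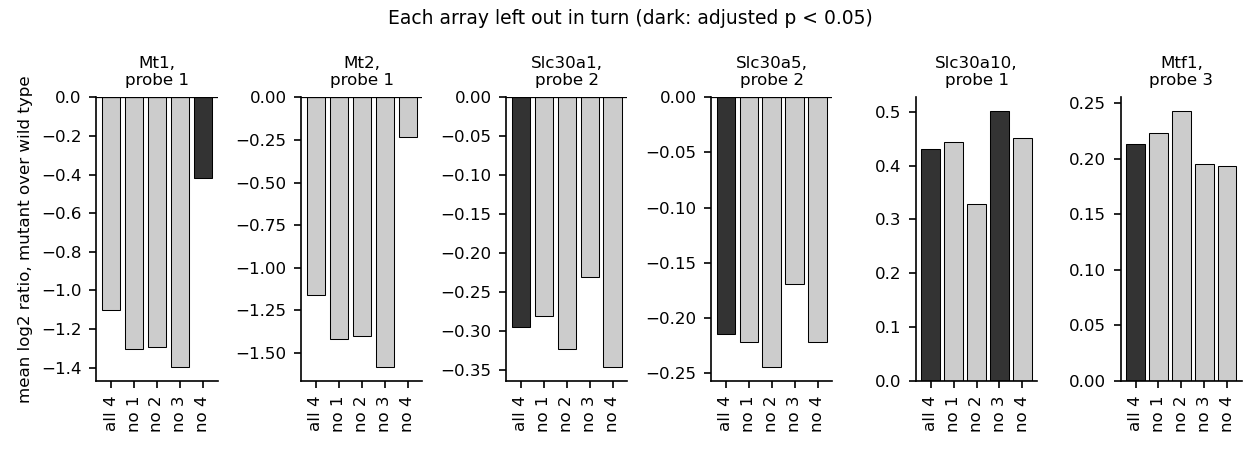
Mean log2 ratio of 6 probes over all 4 arrays and with each array left out in turn; dark bars passed an adjusted p of 0.05 in limma, and each panel has its own axis starting at 0. Mt1 probe 1 shrinks from -1.10 to -0.42 without array 4 and passes only there, and the 4 called probes keep their direction in each panel.

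The importers had 0 called probes of 8 in limma. At an unadjusted p under 0.05 there were also 0, against 12775 of all 39080 kept probes. Slc39a1 (ZIP1), a zinc importer of the cell surface, had probes of opposite mean sign, -0.15 ± 0.26 and 0.09 ± 0.20 (SD, n = 4, limma, adjusted p = 0.325 and 0.468). These probes are annotated to different target sequences. Slc39a4 (ZIP4), known mainly for zinc uptake in the intestine, had ratios of 0.06, -0.19, 0.54 and -0.46 on its only probe, a mean of -0.01 ± 0.43 (adjusted p = 0.963). Its mutants read 14.60 to 15.09 and its wild types 14.54 to 15.13, nearly the same range.

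Slc39a8 (ZIP8) was the steadiest member. Its 3 probes had means of -0.04 ± 0.05, 0.00 ± 0.06 and 0.03 ± 0.11 (SD, n = 4; limma, adjusted p = 0.555, 0.977 and 0.754), and all 12 of its ratios lay between -0.10 and 0.15. Slc39a14 (ZIP14), which imports zinc and manganese and is known to respond to interleukin-6 in liver, had means of -0.14 ± 0.15 and -0.16 ± 0.35 on its 2 probes (adjusted p = 0.189 and 0.420). The ratios of the dimmer Slc39a14 probe were -0.04, 0.05, 0.05 and -0.68. Here too the wild type of array 4 was the highest of the 8 animals, 0.69 log2 units over the mean of the other wild types, and without that array the mean was 0.02. On the brighter Slc39a14 probe array 4 was again the lowest ratio, at -0.33, but its wild type lay below that of array 1.

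Mtf1 was measured by 3 probes that differed in sign. The dimmest (A_52_P55666, probe 3) read 8.55, 8.46, 8.56 and 8.54 in the mutants and 8.37, 8.34, 8.29 and 8.27 in the wild types. Every mutant was above every wild type, the only member probe without overlap. Of kept probes 2.89% had all mutants above all wild types and 4.26% had all mutants below, which no member probe did. The ratios of 0.19, 0.13, 0.27 and 0.27 had a mean of 0.21 ± 0.07 (SD, n = 4) that passed (limma, SE 0.0469, adjusted p = 0.0336). The brightest Mtf1 probe had a mean of -0.09 ± 0.09 (adjusted p = 0.271) and the middle one of -0.02 ± 0.16 (adjusted p = 0.850), and the mean over the 3 probes was 0.03. With any array left out probe 3 had an adjusted p from 0.0797 to 0.116, and with Agilent's processed signals its ratio was 0.33 (adjusted p = 0.0439).

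Other genes of metal handling were taken from 6 lists that hold 37 genes and 57 tested probes besides the members. Of these 57 probes 3 were higher and 4 lower, with a median of -0.05. These counts lie near the 6.19% higher and 6.79% lower among all kept probes. The other ZnT exporters had 2 lower and 0 higher of 11: Slc30a7, which fills the Golgi with zinc (-0.33 ± 0.14, adjusted p = 0.0238), and Slc30a9 (-0.20 ± 0.05, adjusted p = 0.0315), each on 1 of 3 probes. The other ZIP importers had 2 higher and 2 lower of 12. Slc39a11 (0.26 ± 0.05, adjusted p = 0.0196) and Slc39a10 (0.18 ± 0.05, adjusted p = 0.0428) were higher. Slc39a7, which releases zinc from the endoplasmic reticulum (-0.35 ± 0.21, adjusted p = 0.0364), and 1 of 2 probes of Slc39a13 (-0.27 ± 0.04, adjusted p = 0.0181) were lower (SD, n = 4, limma). With median centring in place of loess the ratio of Slc39a7 was -0.05, and with Agilent's processed signals that of Slc39a10 was 0.28.

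The other metallothioneins, Mt3 and Mt4, had 0 calls on 3 probes in limma, with 2 at an unadjusted p under 0.05. Mt3, known from brain, had a mean ratio of 0.13 ± 0.08 (adjusted p = 0.113), and the brighter Mt4 probe, a gene known from skin, one of 0.16 ± 0.06 (adjusted p = 0.0589). The wild type of array 4 was the highest of the wild types on 0 of these 3 probes, against 21.4% of kept probes. Manganese handling genes had 0 calls of 12 probes in limma, with 2 at an unadjusted p under 0.05: the divalent metal importer Slc11a2 (-0.19 ± 0.16, adjusted p = 0.0911) and Atp2c1, the calcium and manganese pump of the Golgi (-0.40 ± 0.42, adjusted p = 0.105), each on a single probe.

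Among 15 probes of copper handling genes 1 was higher, on 1 of 3 probes of Commd1, which takes part in copper export (0.27 ± 0.14, adjusted p = 0.0350). Cp, the copper-carrying acute phase protein ceruloplasmin, had a ratio of -1.44 on array 4 on one probe, with a mean of -0.52 ± 0.63 (SD, n = 4, limma, adjusted p = 0.139), and is named because of that array. The mean of that Cp probe was -0.21 without array 4, and it turned to 0.03 when arrays were centred on the median without loess. The other, dimmer Cp probe had a ratio of 0.07 on array 4 and a mean of 0.02 ± 0.06 (limma, adjusted p = 0.825). Of 5 further genes reported to respond to MTF1, only Slc39a10 was called, and MTF1 is known to repress it. At an unadjusted limma p under 0.05 there were 3. The others were Ndrg1 (-0.38 ± 0.28, adjusted p = 0.0515) and Csrp1 (-0.24 ± 0.19, adjusted p = 0.0752). Gclc and Selenow had means of -0.12 and -0.07. Over these 6 lists, leaving out 1 array left 0 higher probes in each case and 0 to 3 lower ones.

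**Figure D5:**
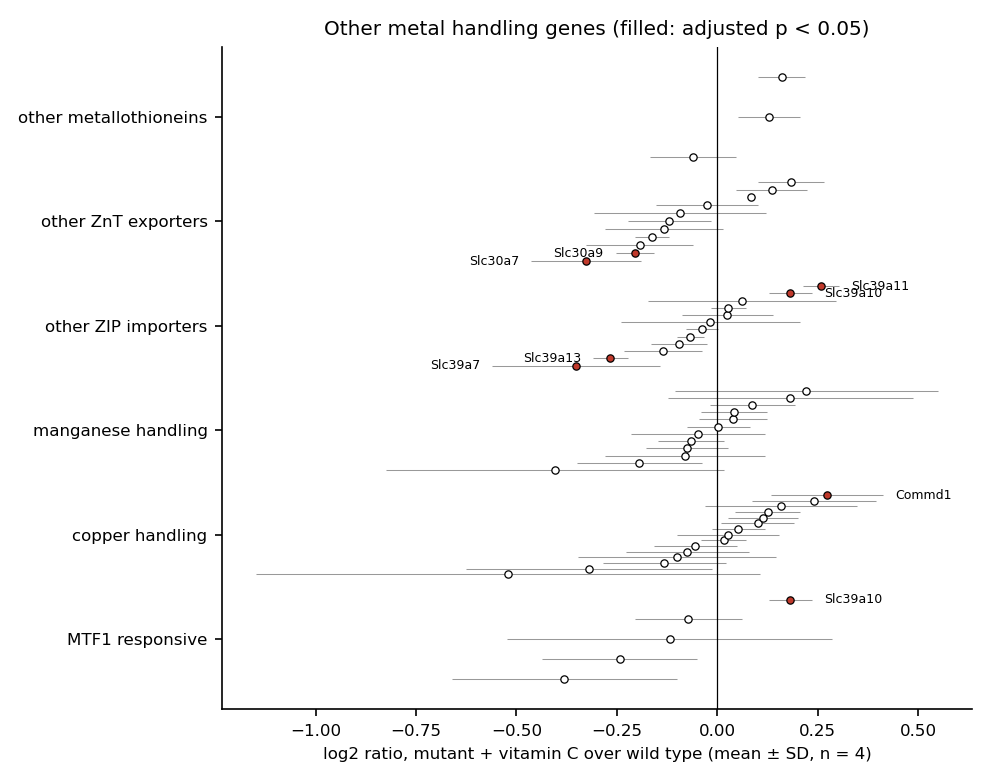
Mean log2 ratio of mutant over wild type (points) with SD over 4 arrays (bars) for the tested probes of 6 lists of metal handling genes. Filled points, with their names, passed an adjusted p of 0.05 in limma; of the 57 different probes 3 lie above 0 and 4 below, and Slc39a10 appears in 2 lists.

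In the authors' deposited table the 10 Mt1 spots of probe 1 had a mean log2 change of -1.10 with adjusted p-values from 0.141 to 0.234, and Mt2 had -1.16 with 0.262. An adjusted p under 0.05 was reached in the authors' deposited table by Slc30a10 probe 1 (0.0367), Mtf1 probe 3 (0.0429) and Slc30a1 probe 2 (0.0483), while Slc30a5 probe 2 stood at 0.0591.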

How the data were processed

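Liver RNA was compared on 4 two-colour arrays of 1 slide and 1 scan time. Per the file headers, the scanner software was Agilent Feature Extraction 10.5.1.1 and the array design follows mm9. Deposited for each spot are the median intensity and its local background per channel, processed signals, and a log10 ratio of these signals. The authors' deposited table gives a log2 ratio per array and spot, their mean, p-values and adjusted p-values, and scores such as the moderated statistic. The submitters' processing notes name limma without saying how the authors normalised.

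The values here come from the median intensity, corrected with normexp (offset 50) and loess by limma 3.58.1 (R 4.3.3). Controls and spots with a quality mark were dropped, and spots of a probe averaged. A probe was kept if it was well above background in either channel on at least 3 arrays, which held for 39080 of 41174. Of the spots without controls, 82.8% (mutant) and 84.5% (wild type) were well above background on array 1. On arrays 2 to 4 the shares per channel were 94.5% to 96.2%. Probe numbers within a gene run from bright to dim. For Mt1, Slc30a5, Slc39a1 and Slc39a8 the array annotation does not name the same target sequence for all probes of the gene. The mean ratio was tested against 0 with lmFit and eBayes, two-sided, with Benjamini-Hochberg adjustment over all kept probes. Levels per animal were taken after Aquantile normalisation and are open to dye bias. The lowest correlation of the authors' log2 ratios with these, across probes of 1 array, was 0.981. The fit was tested on simulated data. Per-sample numeric columns left aside numbered 0.

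The members, gene lists and tests were chosen with earlier results of these data known. All probes of members are named, and of each list of metal handling or response genes up to 4 genes past the threshold or otherwise the 2 of smallest p. Genes outside this rule, those of the cell type marker lists included, were chosen on their values. Other settings tried were background, normalisation, filter, probe rule, moderation, array weights, pairing, thresholds, the authors' ratios and each array left out.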

Additional observations from a re-analysis of the deposited data

Results flagged for a closer look

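Of 63 sets of 4 values checked (ratios, mutant levels and wild-type levels of the 21 probes), 11 had an animal or array far from the other 3. Chance alone gives about 1 in 20 such sets a far value on any of the 4 arrays, and the sets share animals. Of the 11, 8 were on array 4. On array 4 the Mt1 probe 1 ratio was -3.17 against -0.53 to -0.22, and its wild-type level 15.27 against 11.87 to 12.11. The Mt2 ratio there was -3.93 against -0.44 to 0.12, and its wild-type level 16.47 against 12.14 to 12.21. The Mt1 probe 2 ratio on array 4 was -0.50 against 0.00 to 0.10, and that of Slc39a14 probe 2 was -0.68 against -0.04 to 0.05. The wild type of array 4 was the lowest on Slc39a1 probe 2, at 11.12 against 11.49 to 11.54, and on Mtf1 probe 2, at 9.75 against 9.84 to 9.86. On Slc30a1 probe 1 the wild type of array 2 was the lowest, at 12.45 against 12.66 to 12.69. On array 1 the wild type was the highest on Slc39a8 probe 1, at 11.32 against 10.97 to 11.02, and the mutant was the highest on Slc39a14 probe 1, at 12.88 against 12.42 to 12.46.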

How the results depend on the processing

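With 4 arrays and no dye swap, the dye bias of single probes was not tested. The rise of the wild type of array 4 over the other wild types stayed between 3.18 and 3.45 log2 units for Mt1 probe 1 and between 4.18 and 4.64 for Mt2 under the other background and scaling choices. Against 5076 called probes, 2 higher and 2 lower member probes, and 3 higher and 4 lower probes of the metal lists, the counts moved as follows. Without the replicate block, that is with mutants and wild types of an array not taken as a pair, 26 probes passed, and 0 of the members and 0 of the metal lists in either direction. Agilent's processed signals gave 1270 probes, with 0 lower members and 0 lower metal probes. Median centring gave 0 lower members and 9 higher metal probes. The brightest probe per gene gave 3192 probes, 1 higher and 0 lower members and 1 lower metal gene, and the mean of a gene's probes 2724 with 1 higher and 1 lower member. Plain subtraction and the authors' ratios each left 1 lower member. An adjusted p under 0.01 left 163 probes and a change of at least 1.5-fold 273, with 0 members and 0 metal probes in either direction. With an array left out there were 160 to 2270 probes (160 without array 2), 0 to 2 higher and 0 to 1 lower members, and 0 to 0 higher and 0 to 3 lower metal probes. The lower member without array 4 was Mt1 probe 1. Signs reversed only for probes not called: with processed signals Slc39a8 probe 1 (0.012) and probe 2 (-0.14) and Mtf1 probe 2 (0.013); with median centring Slc39a4 (0.29), Slc39a8 probes 1, 2 and 3 (0.019, -0.0015 and -0.048) and Mtf1 probe 2 (0.0079); with the gene mean Mtf1 (0.035, from -0.09 on its brightest probe); with array weights Slc39a8 probe 2 (-0.00062). With an array left out, means of both signs were found for Mt1 probe 2 (-0.16 to 0.035, positive without array 4), Slc39a4 (-0.20 to 0.14, positive without 2 or 4), Slc39a8 probe 2 (-0.020 to 0.028, negative without 1 or 2) and probe 3 (-0.014 to 0.071, negative without 4), Slc39a14 probe 2 (-0.22 to 0.019, positive without 4) and Mtf1 probe 2 (-0.097 to 0.036, positive without 3). The causes were not tested.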
